A study of Mus musculus with 6 samples.

Results

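Binding of estrogen receptor alpha (ERα) in the wild-type mouse uterus was compared between fulvestrant (ICI182780, abbreviated ICI) and vehicle. The members were the peaks of both deposited lists, 26482 with ICI and 3712 with vehicle. Peaks were classed by whether the opposite list had a peak sharing 1 bp or more with them. Merged wherever they overlapped, the 2 lists gave 27693 of the 65146 regions that all 6 lists of the series gave, or 42.5%. Chromatin immunoprecipitation and sequencing (ChIP-seq) had been done on uteri of ovariectomized C57BL/6J mice aged 12 weeks, with an antibody to ERα. The ICI group received 2 mg/kg intraperitoneally in DMSO, the vehicle group 50 µl of DMSO, and uteri were taken after 1 h. Both groups were wild-type littermates of mice with an ERα AF-2 mutation (AF2ERKI), and the removal of the ovaries, the main source of estrogen, was common to all groups. Each list came from 1 library made from the pooled uteri of 6 mice, so there was no replicate, and no comparison could be tested against the spread between animals. A code in the titles of all 6 groups, E1h, has no explanation in the labels. It may stand for the treatment time of 1 h or for an estrogen given for 1 h to every group; the treatment protocol names no estrogen. Vehicle counts are therefore those of the group labelled vehicle, whose hormone state the labels do not settle.

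ERα is a nuclear receptor that binds DNA, directly at estrogen response elements or through other factors, and in most tissues the larger part of its sites lies away from promoters. In the uterus it drives growth of the epithelium and stroma in response to estradiol. Fulvestrant is a steroidal antagonist that fills the ligand pocket, disturbs the AF-2 surface through which coactivators are recruited, and promotes loss of the receptor. A receptor without hormone is held in part by chaperones and occupies fewer sites. The comparison asks where the receptor was found on chromatin with the antagonist and in the group labelled vehicle.

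Every peak was 200 bp wide and was given by position alone, in mm9 coordinates (counted from 1 here), without a height or score. A site missing from a list was not called by the authors, which is not the same as a site without receptor. Depth, which bears on the length of a list, is unknown for both libraries. Intervals in brackets are exact (Clopper-Pearson) 95% intervals. They cover counting error only, and neighbouring peaks are not independent, so that they say nothing of the variation between mice.

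Most vehicle sites were also called with ICI, and these shared sites made up a small part of the ICI list. Of the 3712 vehicle peaks, 2501 overlapped an ICI peak, or 67.4% (65.8 to 68.9), and 1211 did not. From the other side, 2501 of 26482 ICI peaks overlapped a vehicle peak, or 9.44% (9.09 to 9.80), and 23981 did not. The pairing was strictly one to one, each of the 2501 vehicle peaks having 1 ICI partner. Had every vehicle peak been paired, this share would have been 14%, since the ICI list was 7.13 times as long (6.89 to 7.39).

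Paired peaks lay almost on top of each other. The midpoints of the 2501 pairs differed by a median of 19 bp (quartiles 8 and 40), and 41 pairs had identical positions. In 1333 pairs, 53.3%, the midpoints were within 20 bp, and in 80.8% within 50 bp. The mean signed offset, ICI minus vehicle, was 1.12 bp, so neither list was displaced along the chromosome. The first pair on chromosome 1, at 7145113 to 7145312, had the same coordinates in both lists. In the next, the vehicle peak was at 9617425 to 9617624 and the ICI peak at 9617418 to 9617617, an offset of 7 bp. Both sites were also called in wild-type tamoxifen and in the mutant with either ligand.

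Pairs became fewer with distance and passed the limit of the rule without a break. There were 2008 vehicle peaks with an ICI midpoint less than 50 bp away, 314 at 50 to 99 bp, 120 at 100 to 149 bp and 59 at 150 to 199 bp. Just outside the rule, 53 vehicle peaks had an ICI midpoint at 200 to 249 bp and 37 at 250 to 299 bp. Per 100 bp of distance, the number fell from 50.5 at 300 to 499 bp to 17.4 at 500 to 999 bp and 5.40 at 1000 to 1999 bp.

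**Figure D1:**
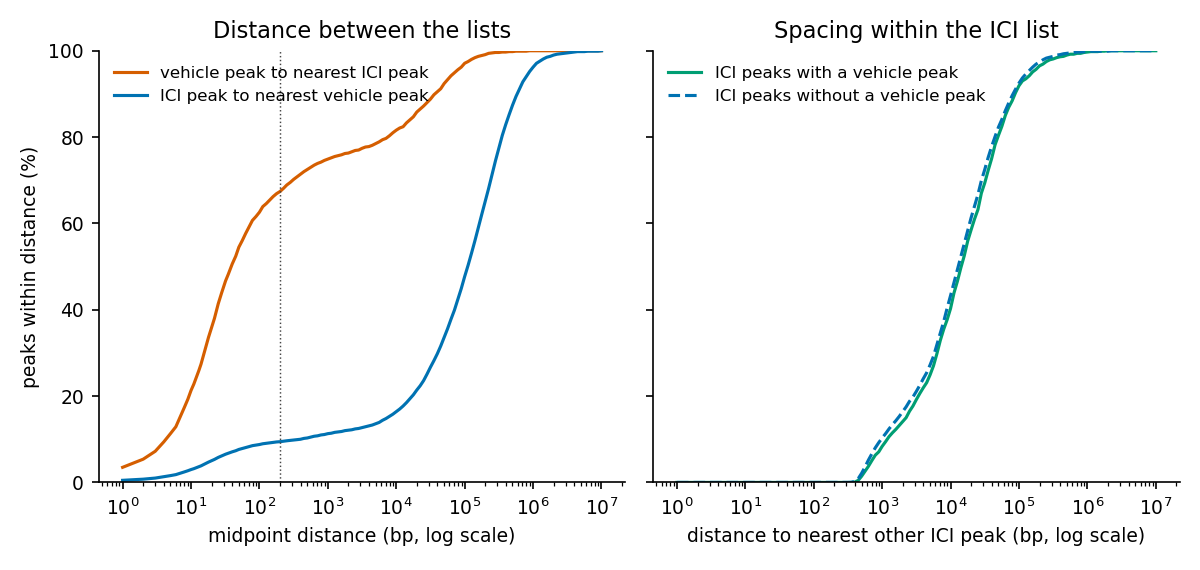
Cumulative share of peaks (%) against midpoint distance in bp on a log axis. The left panel gives the distance of each vehicle peak to the nearest ICI peak and the reverse, with the 200-bp limit of overlap dotted; the right panel gives the distance of ICI peaks with or without a vehicle peak to the nearest other ICI peak. The vehicle curve reaches 67.4% at the limit and the ICI curve 9.44%, and the curves of the right panel lie close together.

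Some vehicle peaks without an ICI partner had an ICI peak close by, but most had none within 10 kb. Of the 1211, 191 had an ICI midpoint within 500 bp, 278, or 23.0% (20.6 to 25.4), within 1 kb, and 527, or 43.5% (40.7 to 46.4), within 10 kb. Of the vehicle peaks with an ICI partner, 40.3% (38.3 to 42.2) had another ICI peak within 10 kb. The intervals overlap, so no difference was shown at 10 kb. At 1 kb the shares lay further apart. Of ICI peaks with a vehicle partner, 8.36% (7.30 to 9.51) had another ICI peak within 1 kb, measured from the ICI midpoint. Positions within 1 kb of an ICI midpoint made up 1.92% of the span of chromosomes 1 to 19 and X, and positions within 10 kb made up 15.3%. The median distance was 15.0 kb (quartiles 1.26 and 47.2 kb), and 107 peaks, 8.84%, were more than 100 kb away. The first on chromosome 1, at 7487657 to 7487856, had its nearest ICI peak at 7488012 to 7488211, 355 bp away, and was called with wild-type tamoxifen and mutant ICI. The second, at 10029680 to 10029879, was 71.5 kb from an ICI peak and was in none of the other 4 lists.

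ICI peaks without a vehicle partner lay at longer distances from the much sparser vehicle list. Their median distance to one was 134 kb (quartiles 45.8 and 313 kb), 13860 of the 23981, 57.8%, were more than 100 kb away or on a contig without a vehicle peak, and 489, 2.04% (1.86 to 2.23), were within 1 kb. Within 100 kb there were 10121, or 42.2% (41.6 to 42.8). Positions within 1 kb of a vehicle midpoint made up 0.280% of the span, and those within 100 kb made up 21.8%, both below the shares of these ICI peaks. The first ICI peaks without a vehicle partner were at 3194177 to 3194376 and 3350012 to 3350211 on chromosome 1, several Mb before the first vehicle peak. The former was in no other list, and the latter was called with wild-type tamoxifen and with both ligands in the mutant.

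The classes differed in how often other libraries held them. These libraries, from wild-type mice given tamoxifen (2 mg/kg) and AF-2 mutant mice given ICI (2 mg/kg), tamoxifen or DMSO, played no part in the classes. ICI peaks with a vehicle partner overlapped a wild-type tamoxifen peak in 95% of cases (94.0 to 95.8), against 69.8% (69.2 to 70.3) for ICI peaks without one and 72.1% for all ICI peaks. In the mutant ICI list the shares were 90.5% (89.3 to 91.6) and 70.9% (70.3 to 71.5), against 72.8% for all. In the mutant tamoxifen list they were 88.0% (86.7 to 89.3) and 64.3% (63.7 to 64.9), against 66.5%. Mutant vehicle peaks were found at 19.8% (18.2 to 21.4) and 5.0% (4.73 to 5.29), against 6.40%. In each of these lists the gap between the classes was wider than the counting error.

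All 3 other ligand lists held 2114 of the 2501 ICI peaks with a vehicle partner, or 84.5% (83.0 to 85.9). The same was true of 12919 of the 23981 without one, or 53.9% (53.2 to 54.5). None of the 3 held 70 of the former, 2.80% (2.19 to 3.52), and 4170 of the latter, 17.4% (16.9 to 17.9). Sites shared by ICI and vehicle were therefore nearly all ligand-bound sites in the other libraries too, while about 1 in 6 of the sites without a vehicle peak was seen with ICI in the wild type alone among the ligand lists.

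Vehicle peaks without an ICI partner were held less often by the ligand lists and more often by the other vehicle list. Wild-type tamoxifen held 45.6% of them (42.7 to 48.4), mutant ICI 50.7% (47.8 to 53.6) and mutant tamoxifen 51.7% (48.8 to 54.5), against 78.9%, 77.4% and 76.2% of all vehicle peaks. The mutant vehicle list held 588 of the 1211, or 48.6% (45.7 to 51.4), against 29.4% of all vehicle peaks and 20.2% (18.6 to 21.8) of those with an ICI partner. The order of the classes was thus turned in the mutant vehicle list. Of the 1211, 404, or 33.4% (30.7 to 36.1), were in none of the 3 other ligand lists, against 68, or 2.72% (2.12 to 3.43), of the 2501 vehicle peaks with an ICI partner. In none of the other 4 lists were 304 of the 1211, or 25.1%, against 58, or 2.32%, of those with a partner.

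**Figure D2:**
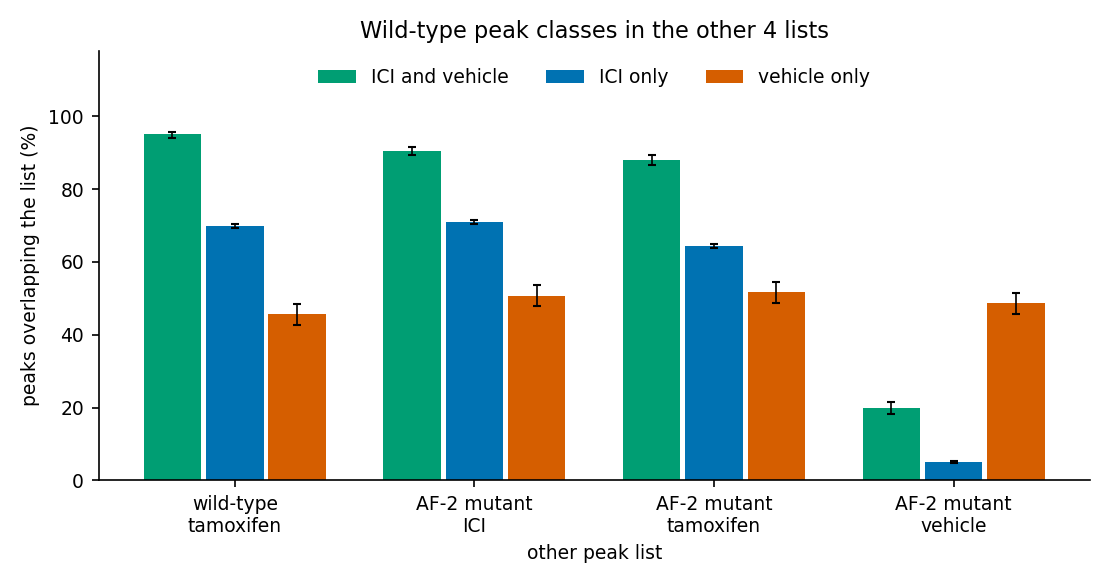
Share of peaks (%) that overlap a peak of each of the other 4 lists, for wild-type ICI peaks with a vehicle partner, ICI peaks without one and vehicle peaks without an ICI partner; bars are shares with exact 95% intervals for counting error. In the ligand lists the shares descend in that order, whereas in the mutant vehicle list vehicle-only peaks are highest at 48.6%.

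The 588 vehicle-only peaks that recurred in the mutant vehicle list were also more often ligand-bound elsewhere than the remaining 623. Mutant ICI held 71.1% of them (67.2 to 74.7) against 31.5% (27.8 to 35.3), and wild-type tamoxifen held 53.4% (49.3 to 57.5) against 38.2% (34.4 to 42.1). None of the 3 other ligand lists held 17.0% (14.1 to 20.3) of the recurring peaks and 48.8% (44.8 to 52.8) of the others. Among vehicle peaks with an ICI partner the split was smaller, and only in mutant tamoxifen did the intervals not meet. Mutant ICI held 93.1% (90.5 to 95.1) of those in the mutant vehicle list and 89.7% (88.3 to 91.0) of those not in it, and mutant tamoxifen held 94.3% (91.9 to 96.1) and 86.5% (84.9 to 88.0). Wild-type tamoxifen held 92.9% (90.3 to 95) and 95.6% (94.7 to 96.5), in the opposite order but with overlapping intervals.

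Recurrence also varied with the distance to the partner list. ICI peaks lying 200 to 499 bp from a vehicle peak numbered 229, and 54.6% of them (47.9 to 61.2) were in the wild-type tamoxifen list. For the 1340 that lay 1 to 10 kb from a vehicle peak the share was 74.3% (71.9 to 76.6), and for those at 100 kb or more 68.5% (67.7 to 69.3). Vehicle-only peaks at 200 to 499 bp from an ICI peak, 191 in number, had a share of 37.7% (30.8 to 45.0), the 87 at 500 to 999 bp had 57.5% (46.4 to 68.0), and the 577 at 10 to 100 kb had 45.6% (41.5 to 49.7). The intervals of the first pair of these bins did not meet, and the shares followed no steady course with distance. In the mutant vehicle list these 191 and 577 peaks were held at 45.0% (37.8 to 52.4) and 52.5% (48.3 to 56.7). Peaks within a list also kept a distance from each other. The closest midpoints were 266 bp apart in the wild-type tamoxifen list and 261 bp in the mutant vehicle list. A peak called at the neighbouring site could thus leave no room for another, which may lower the shares at 200 to 499 bp. How far it did so was not tested, so these shares are not fully comparable with those at longer distances.

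Peaks of both lists were unevenly spaced along the chromosomes. Neighbouring ICI midpoints were a median of 30.2 kb apart and a mean of 96.9 kb, 3.21 times the median, since short gaps were many and a few were long. Of the gaps, 25% were under 10 kb, 5.21% were under 1 kb, and the longest was 10.5 Mb. Vehicle midpoints were a median of 304 kb apart and a mean of 683 kb, with 3.58% of gaps under 10 kb and 18.9% over 1 Mb. No 2 peaks of the ICI list were closer than 292 bp, and per 100 bp of distance the nearest neighbour was most often at 500 to 999 bp, with 432 peaks, against 263 at 300 to 499 bp and 161 at 1000 to 1999 bp.

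Vehicle-bound ICI sites were spaced much like the others within the ICI list. Another ICI peak lay within 10 kb of 1008 of the 2501 ICI peaks with a vehicle partner, or 40.3% (38.4 to 42.3), and of 10383 of the 23981 without one, or 43.3% (42.7 to 43.9), against 43.0% of all ICI peaks. The median distance to the nearest other ICI peak was 14.3 kb with a vehicle partner and 13.0 kb without. Within 50 kb to either side, the classes had a mean of 2.42 and 2.56 other ICI peaks. At 1 kb the shares were 8.36% (7.30 to 9.51) and 10.3% (9.96 to 10.7). The direction of this small difference depended on the pairing rule: with midpoints within 1 kb counted as paired, the shares within 10 kb were 44.3% with a vehicle partner and 42.8% without. That rule paired 2990 ICI peaks with 2779 vehicle peaks. Close ICI peaks can share 1 vehicle peak under it, which by itself raises the former share. Of the vehicle-only peaks, 23.5% had no ICI peak within 50 kb, and 19.6% of the vehicle peaks with an ICI partner had no second one there.

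To describe clusters, ICI peaks were chained wherever neighbouring midpoints were within 10 kb. This gave 15091 single peaks, 3517 pairs and 1250 clusters of 3 or more, which held 4357 peaks, or 16.5% of the list (16.0 to 16.9). The largest held 11. A vehicle partner was present at 9.89% of single peaks (9.42 to 10.4), in 17.1% of pairs (15.9 to 18.4) and in 26.2% of clusters of 3 or more (23.8 to 28.8). Counted per peak the order was the other way: 9.89% of single peaks, 9.11% of peaks in pairs (8.45 to 9.81) and 8.42% of peaks in clusters of 3 or more (7.62 to 9.29) had a vehicle partner. Large clusters thus contained a vehicle site more often, while the share per peak was no higher in them. Only 73 of the chains held 2 or more vehicle partners.

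Clustered ICI peaks without a vehicle partner were more often held by the other ligand lists. All 3 lists held 51.0% of the single peaks (50.2 to 51.9), 55.7% of those in pairs (54.5 to 56.9) and 60.6% of those in clusters of 3 or more (59.1 to 62.1). The share held by none of the 3 was 19.1% (18.5 to 19.8), 16.3% (15.4 to 17.3) and 13.2% (12.2 to 14.3). In the 17 clusters of 7 or more it was 3.25% (0.893 to 8.12), and in those of 5 to 6 it was 10.8% (8.40 to 13.7). With a vehicle partner, single peaks were in all 3 lists at 82.4% (80.4 to 84.3) and those in clusters of 3 or more at 89.9% (86.4 to 92.8). Presence of a vehicle partner went with a larger difference than clustering did.

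**Figure D3:**
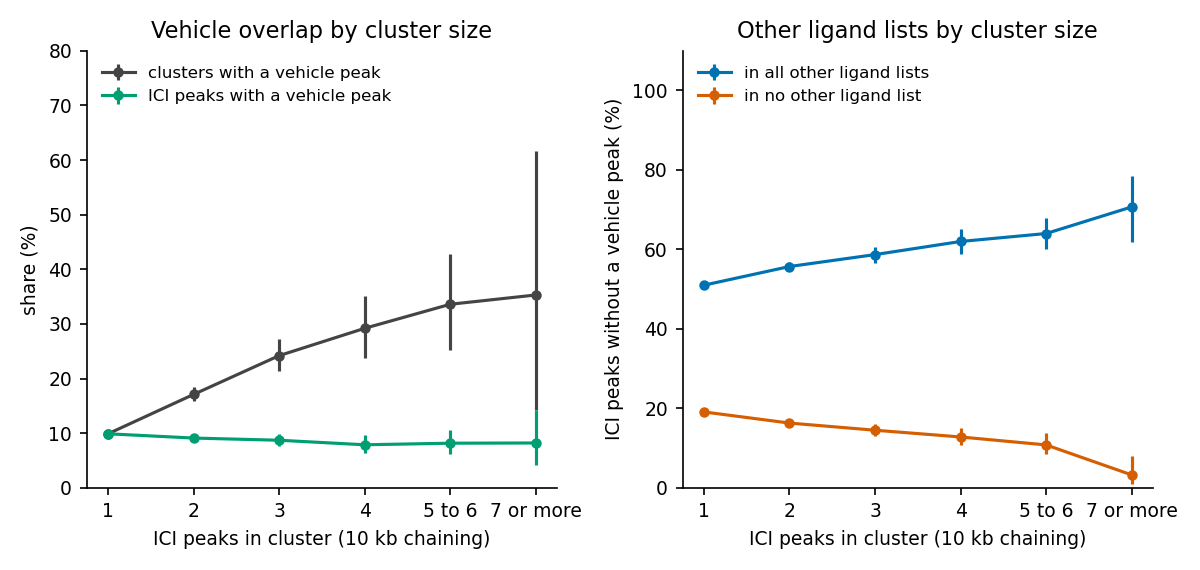
Left, share (%) of ICI clusters with a vehicle partner and of ICI peaks with one, by the number of ICI peaks in the cluster; right, share (%) of ICI peaks without a vehicle partner that all 3 or none of the other ligand lists held. Bars are exact 95% intervals for counting error; the per-peak vehicle share stays between 7.88% and 9.89%, while the share held by all 3 lists goes from 51.0% for single peaks to 64.0% in clusters of 5 to 6 and 70.7% in the 17 clusters of 7 or more.

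Named clusters show the extremes. The cluster with the most vehicle partners was on chromosome 8 at 93378786 to 93401232, with 5 ICI and 4 vehicle peaks in 22.4 kb. Its ICI peaks at 93386061 to 93386260, 93386530 to 93386729 and 93401033 to 93401232 had vehicle partners and were found in all 3 other ligand lists. The peak at 93378786 to 93378985 had a vehicle partner at 93378710 to 93378909 and none in those lists. That at 93393551 to 93393750 had no vehicle partner and was called in each of the 3. The mutant vehicle list had 0 peaks in the cluster. This cluster was picked by its vehicle count.

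The largest cluster with a vehicle peak lay on chromosome 15 at 83461597 to 83497189, with 10 ICI peaks of which 3 had a vehicle partner. All 10 were in the wild-type tamoxifen list and 6 in all 3 other ligand lists. A cluster of 9 ICI peaks at 35951995 to 35989986 of chromosome 5 had 1 vehicle partner, and another of 9 at 104453772 to 104498905 of chromosome 11 had 3. All 9 of each were in the wild-type tamoxifen list.

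The largest cluster of all, on chromosome 2 at 157920759 to 157971404, had 11 ICI peaks in 50.6 kb and 0 vehicle peaks in either genotype. Of the 11, 9 were in the wild-type tamoxifen list and 7 in all 3 other ligand lists. This cluster and the 2 below were named as the largest without a wild-type vehicle peak, so that absence was fixed by the choice. On chromosome 11 at 117791969 to 117830693, 10 ICI peaks were accompanied by 0 vehicle peaks, and all 10 were in each of the 3 other ligand lists. The next in size without a wild-type vehicle peak was on chromosome 18 at 35974293 to 36009506. It had 8 ICI peaks, 7 of them in all 3 lists, and 1 mutant vehicle peak. The absence of called vehicle peaks from large clusters was not general. A vehicle partner was present in 26.2% of the clusters of 3 or more and in 35.3% (14.2 to 61.7) of the 17 clusters of 7 or more.

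**Figure D4:**
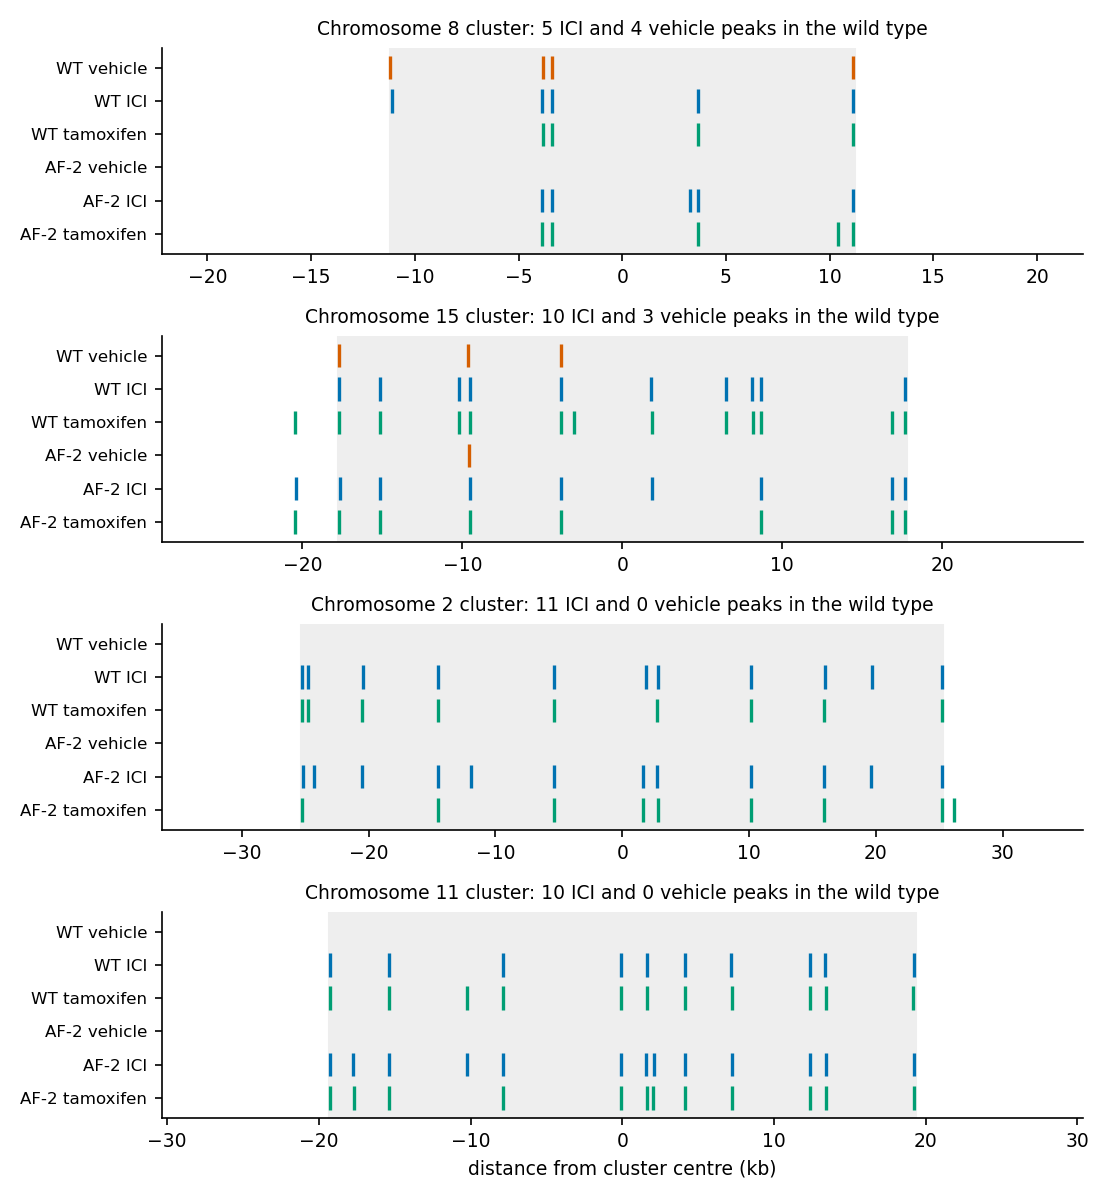
Peaks of the 6 lists in 4 ICI clusters, as ticks at their distance in kb from the cluster's centre; the shaded span is the cluster, with 10 kb on either side, WT is wild type and AF-2 the AF-2 mutant. The chromosome 8 cluster has 4 vehicle peaks beside 5 ICI peaks, and the chromosome 2 and 11 clusters have 0 vehicle peaks beside 11 and 10.

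The genome was also cut into windows of 100 kb laid end to end. An ICI peak was present in 2955 of the 3215 windows that held a vehicle peak, 91.9%, against 43.9% of all windows in the span. Much of this share restates the overlap, since 2501 of the 3712 vehicle peaks had an ICI partner. There were 260 windows with a vehicle peak and no ICI peak, and they held 272 vehicle peaks, beside 1211 vehicle-only peaks in all. Vehicle peaks outnumbered ICI peaks in 291 windows. The most paired sites, 4, were in a window on chromosome 2 at 154500001 to 154600000, with 7 ICI and 4 vehicle peaks, and in one on chromosome 5 at 120000001 to 120100000, with 11 and 6. Another window, on chromosome 1 at 89400001 to 89500000, held 3 pairs, as 28 windows did, and had 4 ICI and 3 vehicle peaks.

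ICI peaks without a vehicle partner were most numerous in windows at 122900001 to 123000000 of chromosome 8 (13 peaks), 76100001 to 76200000 of chromosome 10 (13 peaks) and 157900001 to 158000000 of chromosome 2 (12 peaks). None of these windows held a wild-type vehicle peak, but they were picked by a count that favours windows without one. The chromosome 8 window held 2 mutant vehicle peaks. No window had more than 2 vehicle peaks without an ICI partner, and 58 had 2. The first of these, on chromosome 1 at 40400001 to 40500000, had 0 ICI peaks but 3 peaks with wild-type tamoxifen and 5 with mutant ICI. The next along, at 55100001 to 55200000 and 75300001 to 75400000, had 4 and 12 ICI peaks beside them.

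On the scale of 1 Mb, both lists were fuller in the same parts of the genome. Over 2648 windows of 1 Mb, the numbers of ICI and vehicle peaks had a Pearson correlation of 0.682 and a Spearman correlation of 0.732. Counting only peaks without a partner, these were 0.408 and 0.442. Windows share gene and sequence content that was not measured here, so these values are descriptions. ICI peaks were absent from 429 windows and vehicle peaks from 1053, and 6 windows had a vehicle peak and no ICI peak.

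The ratio of the lists varied with this density. Windows with 1 to 4 ICI peaks held 4.98 ICI peaks per vehicle peak and those with 20 or more 7.95. This follows in part from sorting windows by their ICI count. In the former, 12.6% of ICI peaks (10.8 to 14.5) had a vehicle partner, and in the latter 8.82% (8.30 to 9.35), against 9.44% overall. Vehicle peaks had an ICI partner at 62.8% (56.6 to 68.7) in the former and 70.1% (67.7 to 72.5) in the latter. The windows with 20 or more ICI peaks held 38.6% of all vehicle peaks and 35.3% of the vehicle-only peaks.

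By chromosome the lists were near proportional. The number of ICI peaks per vehicle peak ranged from 5.79 on the X chromosome (4.64 to 7.31) to 8.58 on chromosome 18 (7.02 to 10.6), and the interval contained the overall 7.13 on 19 of 20 chromosomes. The exception was chromosome 8, at 6.06 (5.31 to 6.95), where vehicle density was highest at 1.94 peaks per Mb and 11.1% of ICI peaks (9.58 to 12.8) had a vehicle partner. ICI density was highest on chromosome 11, at 14.3 per Mb, and lowest on the X chromosome, at 3.20. Densities are over the span up to the last peak of any list.

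The share of vehicle peaks with an ICI partner lay below the overall 67.4% beyond counting error on chromosome 2, at 61.0% (55.1 to 66.6), and on the X chromosome, at 53.3% (42.6 to 63.7). These were 2 of 20 intervals. The X chromosome held 43 of the 1211 vehicle-only peaks, 3.55% (2.58 to 4.75), and 49 of the 2501 paired vehicle peaks, 1.96% (1.45 to 2.58), intervals that meet at their ends. Of ICI peaks without a vehicle partner it held 2.02% (1.84 to 2.20).

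**Figure D5:**
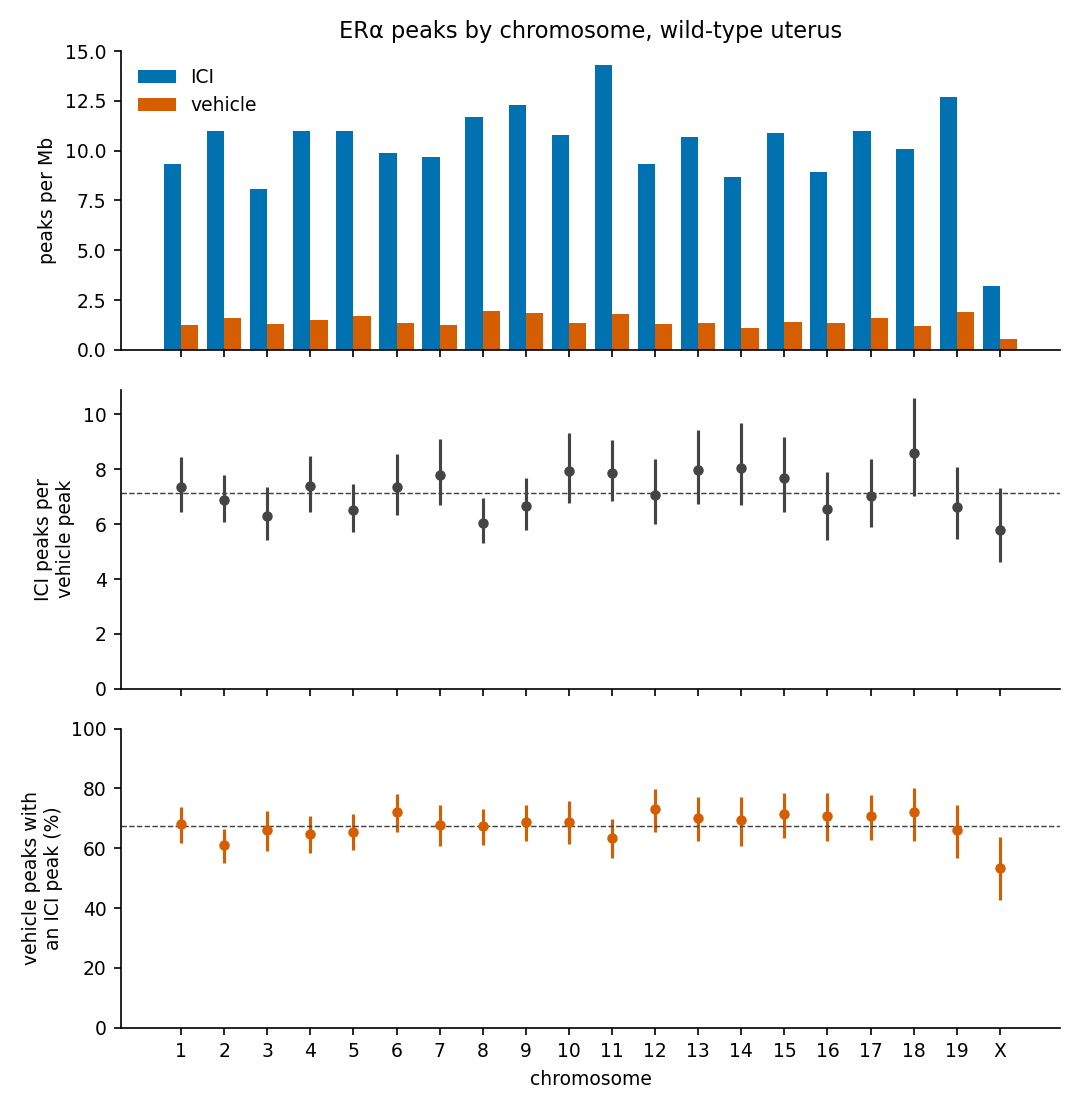
Wild-type peaks by chromosome: peaks per Mb of spanned chromosome (top), ICI peaks per vehicle peak (middle) and share (%) of vehicle peaks with an ICI partner (bottom), with exact 95% intervals for counting error and dashed lines at the overall 7.13 and 67.4%. Density is lowest on the X chromosome in both lists, and the X chromosome has the lowest share of paired vehicle peaks, 53.3%.

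Some long stretches that lacked ICI peaks held vehicle peaks, in the 2 longest of them close to an ICI peak at the end. The longest such stretch was on chromosome 14 at 108694827 to 115265094, 6.57 Mb. It had 2 vehicle peaks near its ends, at 108712355 to 108712554 and 115256956 to 115257155, which were 0.0177 and 0.00814 Mb from an ICI peak. Both were called in the wild-type tamoxifen list and in both ligand lists of the mutant. On the X chromosome, a stretch of 5.92 Mb at 120217272 to 126134569 held 1 vehicle peak at its edge, at 120217324 to 120217523. It was 0.000252 Mb from an ICI peak and was in no other list. On chromosome 7, the stretch of 4.81 Mb at 66098558 to 70909540 held 1 vehicle peak, at 69564985 to 69565184. It was 1.34 Mb from the nearest ICI peak, and of the other lists only mutant vehicle had it.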

How the data were processed

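The authors deposited 1 peak list per library; its values are mm9 positions and a name made from them, with no signal. HOMER 4.10.3 and Bowtie2 2.1.0 are among the tools that the submitters' processing notes name, with SAMtools, bedtools 2.24.0 and Picard, and no tool has a stated role. The sources used here do not give the calling threshold or any use of an input library. Overlaps, distances and chains came from scipy 1.17.1, pandas 2.3.3, numpy 2.4.6 and matplotlib 3.10.9 in Python 3.11.15 and were checked on simulated lists. All 10 overlap counts between these lists and the others matched bedtools 2.31.1, with 0 differences. Distances run between midpoints.

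With 1 library per group no test was run. Classes, lists and regions were chosen with earlier results of these data known. Regions were named by rule: per class the 3 fullest windows of 100 kb and first 2 peaks on chromosome 1, the 3 largest clusters with and without a vehicle peak, and the 3 longest stretches without ICI peaks holding a vehicle peak, ties by position. The cluster with the most vehicle partners was added after its values were seen. Placement by gene and by estrogen response element was planned only with an mm9 annotation or genome, which was not used here, so genes are not named and no sequence is shown.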

Additional observations from a re-analysis of the deposited data

How the results depend on the processing

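Of 60 values recomputed under alternatives, 39 stayed within the counting interval of the reported value. Among these were the shares on the X chromosome under each setting run for them. All 10 values with chromosomes 1 to 19 only also stayed, but that setting kept 25936 of 26482 ICI peaks and could move values little. Of 13 values each, 4 moved when 100 bp of overlap was required and 6 when midpoints within 1 kb were paired. The alternative pairing rules were applied to the tamoxifen list as well as to the classes. Under them a share in wild-type tamoxifen therefore differs in its measure too. Requiring 100 bp of overlap gave 62.6% of vehicle and 8.78% of ICI peaks paired, 67.7% of ICI peaks without a vehicle partner in wild-type tamoxifen, and 50.7% of vehicle-only peaks with an ICI peak within 10 kb. Pairing midpoints within 1 kb gave 74.9% and 11.3% paired, and 74.2% of ICI-only and 49.1% of vehicle-only peaks in wild-type tamoxifen. That setting takes the close neighbours out of the vehicle-only class, of which 26.7% then had an ICI peak within 10 kb. It also lets close ICI peaks share 1 vehicle peak, and under it the order of ICI spacing turned. Another ICI peak lay within 10 kb of 44.3% of ICI peaks with a vehicle partner and 42.8% of those without. Merging peaks within 500 bp gave 42.0% for ICI peaks without a vehicle partner and 15.8% of ICI peaks in clusters of 3 or more. By construction, distances of 5 and 20 kb moved the shares with an ICI neighbour, to 24.8% and 58.5% with a vehicle partner, 27.1% and 61.4% without, and 34.1% and 56.4% for vehicle-only peaks. They put 4.83% and 36.1% of ICI peaks in clusters of 3 or more, and 30.5% of such clusters held a vehicle partner at 20 kb. No paired analysis was possible because each group had 1 library, and leaving one out was not possible for the same reason. The stricter score threshold was not run, as the lists carry no score, nor were the alternatives for gene placement and estrogen response elements. Unknown depth limits every statement on absence from a list.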

Other observations

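ICI peaks with a vehicle partner also lay somewhat closer to their tamoxifen partners, by offsets for which no interval was computed. Against their wild-type tamoxifen partner, 2375 ICI peaks with a vehicle partner had a median midpoint offset of 13 bp, with 68.1% within 20 bp, and 16729 without one had 17 bp, with 56.3% within 20 bp. For all ICI peaks against mutant ICI the median was 17 bp over 19270 pairs, and for vehicle against wild-type tamoxifen it was 14 bp over 2930 pairs, beside the 19 bp between vehicle and ICI.

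The ICI list held 13 peaks on unplaced contigs and the wild-type vehicle list 0. The closest midpoints within a list were 292 bp apart with ICI and 342 bp with vehicle, and 0 peaks overlapped another of their own list.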
